A study of Mus musculus with 3 samples.

Results

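The genes of oxidative phosphorylation were taken from the mm10 RefSeq protein-coding genes by their symbols: those that start with Nduf, Uqcr, Cox4 to Cox8 or Atp5, together with Sdha, Sdhb, Sdhc and Sdhd. This gave 96 genes of 21627 on the autosomes and the X chromosome. By role, 77 encode subunits made in most tissues, 3 encode muscle-type subunits of cytochrome c oxidase (Cox6a2, Cox7a1 and Cox8b), 5 encode isoforms of other tissues or states, and 8 encode assembly factors of complex I. The other 3 are Cox7a2l, a factor of respiratory supercomplexes, and Ndufb4b and Ndufb4c, which are close in name to Ndufb4. The rule itself uses symbols and no measured value, though it was written with earlier results of these data known.

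Oxidative phosphorylation makes most of the ATP of the working heart. Complexes I and II take electrons from NADH and succinate, complex III passes them to cytochrome c, and complex IV, cytochrome c oxidase, hands them to oxygen. Complexes I, III and IV pump protons across the inner mitochondrial membrane, and complex V, the ATP synthase, uses the gradient to make ATP. Several nuclear subunits of complex IV come in a form found in most tissues and a form found in heart and skeletal muscle, and the muscle form gains ground as the heart matures.

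The zinc finger protein FOG2, encoded by Zfpm2, binds GATA factors as a cofactor in the developing heart. Its occupancy was measured in heart ventricles of mouse embryos at E12.5. Per the labels' protocol, the embryos were homozygous for a FOG2 allele written Fog2flbio and for the biotin ligase BirA at Rosa26, and about 20 ventricles were combined in each replicate. Biotinylated FOG2 was captured on streptavidin beads by that protocol. The sample characteristics differ from it: they give the genotype as WT and name FOG2 as the antibody, so which of these was used to pull down FOG2 is not settled by the labels. There were 2 FOG2 pulldown libraries and 1 input library of the same tissue and labelled genotype, and no control pulldown was analysed here.

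A single list of 6166 peaks from the pooled pulldown was analysed, so no value has a replicate spread and no test between libraries could be made. The fold is that of the authors' peak caller, pulldown signal divided by control signal at the summit, on a linear scale. The same constant is added to both signals before the division, so a plain ratio of fragments to control level would be higher. Fragment numbers were recovered from the fold and the p-value of each peak, with exact 95% Poisson intervals that cover counting error only. The median peak of the whole list was 6.39-fold over control and rested on 12 fragments. Expression was not measured, so the tissue could be checked only through the peaks. Summits were assigned to 6 of 7 cardiomyocyte marker genes, 2 of 3 endothelial, 0 of 5 skeletal muscle, 0 of 4 blood and 0 of 3 hepatocyte marker genes. The share of all protein-coding genes was 13.6%, and 4.52% of those with a gene body under 10 kb. In sets this small, counts of 0 beside such shares say little about the tissue.

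Taken as a group, oxidative phosphorylation genes had a FOG2 summit about as often as any gene. Each summit was assigned to the nearest protein-coding gene body within 100 kb, and 12 of the 96 genes received 13 summits, against 13.6% of all protein-coding genes with at least 1. With the summit in the gene body or within 5 kb of it the count was 9 (9.38%), against 9.36% of all genes. The 12 genes were Cox6a2, Cox7a1, Atp5e, Atp5g3, Ndufa1, Ndufa4, Ndufa6, Ndufa12, Ndufb6, Ndufs4, Ndufs6 and Ndufaf5. The other 84 received none.

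These genes are short and lie close to their neighbours, and among genes of like size they had summits more often. Their median gene body was 7.23 kb, against 17.3 kb for all protein-coding genes. Their median territory, the length of sequence in which a summit would be assigned to the gene, was 16 kb against 44 kb. Of the 67 with a gene body under 10 kb, 9 (13.4%) had an assigned summit, against 4.52% of all genes that short. Of the 76 in the lower 5 deciles of territory, 6 (7.89%) had an assigned summit, against 3.08% of all genes there.

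The contrast was wider for summits inside the gene body or beside its ends. A summit lay inside the gene body of 9 of the 96 genes (9.38%), against 8.31% of all genes, and of 7 of the 67 short genes (10.4%), against 0.749% of all short genes. Within 1 kb of a gene end a summit was assigned to 6 of the 96 (6.25%), against 0.86% of all genes, and to 6 of the 67 short genes (8.96%), against 0.698% of all short genes. These include Cox6a2 and Cox7a1, whose bodies are under 2 kb, so that any summit inside them lies within 1 kb of an end. Ribosomal protein genes, which are also short and active in most cells, had an assigned summit in 2 of 84 cases (2.38%) and in 0 cases inside the gene body. The difference between these sets was not tested, and the 10 kb limit, the ribosomal protein set and the count near gene ends were chosen after the summits had been seen.

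**Figure D1:**
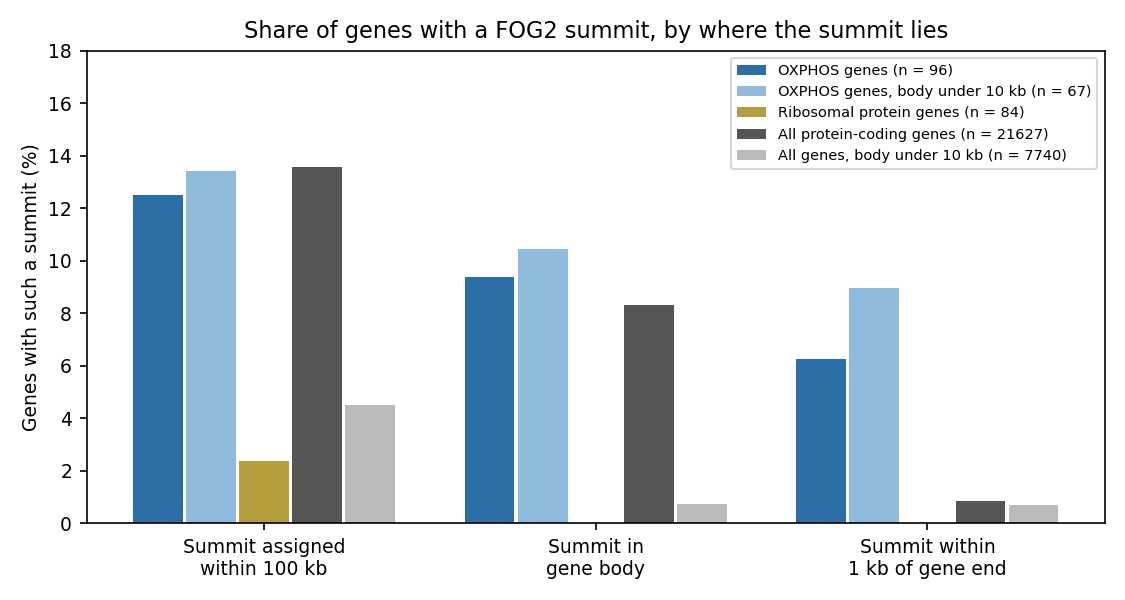
Share of genes with an assigned FOG2 summit (vertical axis, %) within 100 kb, inside the gene body and within 1 kb of a gene end. Bars are oxidative phosphorylation (OXPHOS) genes, those with a gene body under 10 kb, ribosomal protein genes, all protein-coding genes and all genes under 10 kb. OXPHOS genes are near the level of all genes at 100 kb (12 of 96 genes and 13.6%) and above it within 1 kb of a gene end (6.25% and 0.86%).

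Of the 3 muscle-type subunits of cytochrome c oxidase, Cox6a2 and Cox7a1 held FOG2 summits inside their gene bodies and Cox8b did not. Their ubiquitous partners Cox6a1, Cox7a2 and Cox8a had none assigned, and the nearest summit to any of them lay over 100 kb away. Of all protein-coding genes, 8.31% held a summit in the gene body and 13.6% had one assigned. For 14428 of the 21627 the nearest summit lay over 100 kb away, so the partners resemble most genes in this. With 3 genes on each side the contrast is a description.

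Cox6a2 (gene ID 12862, chr7:128205435-128206366) encodes the heart and skeletal muscle isoform of subunit 6A. Its gene body of 0.932 kb held 2 summits, 0.143 kb and 0.377 kb from its nearer end. The stronger peak, at chr7:128206116-128206505, was 10.9-fold over control with 19 fragments (95% interval 11.4 to 29.7) and a −log10 q of 16.2. The weaker, at chr7:128205746-128206033, was 5.41-fold with 11 fragments (5.49 to 19.7) and a −log10 q of 4.63. The intervals of the fragment numbers overlap, and the order of these summits was not tested. The peaks lie side by side, closer together than the length of the sheared fragments, 300 to 800 bp. Whether they are separate bound regions was not tested. The body of the neighbouring Itgad, an integrin gene, ended 308 bp from the weaker summit and 719 bp from the stronger.

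Cox7a1 (gene ID 12865, chr7:30184171-30186030) encodes the heart and skeletal muscle isoform of subunit 7A. Its single summit lay in the middle of a gene body of 1.86 kb, 951 bp after the gene start and 908 bp before the gene end. The peak at chr7:30185003-30185173 was 4.96-fold with 10 fragments (4.80 to 18.4) and a −log10 q of 3.72. It was the weakest of the 13 summits by fold and ranked 5198 of the 6166 peaks. With only peaks of a −log10 q of at least 5 it is lost, and 1 of the 3 muscle-type genes keeps a summit, with 10% of all genes called at that threshold. In the stronger 50% of peaks by fold it is lost as well, with 8.01% of all genes called.

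A summit inside so short a gene was rare. Of 2441 protein-coding genes with a body under 2 kb, 3.15% had a summit assigned within 100 kb, and 5 (0.205%) held a summit in the body: Pcbp1 at 20.4-fold, Cox6a2, Gm52451 at 7.46-fold, Tcap at 5.67-fold and Cox7a1. Pcbp1 encodes an RNA-binding protein and Tcap a titin-binding protein of the muscle Z-disc. Cox6a2 was the only one of the 2441 with 2 such summits (0.041%), which may not be separate bound regions. This length limit was chosen after the values were seen.

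Cox8b (chr7:140898942-140900446), the muscle isoform of subunit 8, had its nearest summit 41.2 kb from the gene body. That peak was 5.54-fold with 12 fragments (6.20 to 21.0) and was assigned to Pgghg. Among the ubiquitous partners, Cox7a2 lay 117 kb from its nearest summit, which was 26.4-fold with 41 fragments (29.4 to 55.6) and was assigned to the collagen gene Col12a1. For Cox6a1 the distance was 277 kb and for Cox8a it was 1810 kb. The muscle-type genes were thus nearer to a summit than their partners in each of the 3 pairs. The 5 isoforms of other tissues or states had none assigned, against 13.6% of all protein-coding genes with one. The nearest summit lay 27.7 kb from Cox4i2 of the lung and 50.8 kb from the hypoxia-induced Ndufa4l2. It lay 71.8, 126 and 229 kb from the testis isoforms Cox8c, Cox7b2 and Cox6b2. Whichever gene it was assigned to, a summit lay within 100 kb of 33.3% of all genes.

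The promoter sequences of Cox7a1 and Cox7a2 are shown because the genes encode the muscle-type and ubiquitous forms of the same subunit and differ both in FOG2 summits and in GATA letters. They run 5′ to 3′ along each gene from 250 bases before to 50 after its start, from RefSeq on GRCm38.p6: chr7:30183921-30184220 on the plus strand for Cox7a1 and chr9:79759804-79760103 on the minus strand for Cox7a2. Capitals mark matches, on either strand, to the letters searched for. Those of GATA factors were AGATAA and, with another first base, TGATAA. The T-box letters were AGGTGT. For the oestrogen-related receptors (ERR) they were AAGGTCA. The ETS letters were CCGGAAG, and for the nuclear respiratory factor NRF1 the search used CGCATGC.
Cox7a1: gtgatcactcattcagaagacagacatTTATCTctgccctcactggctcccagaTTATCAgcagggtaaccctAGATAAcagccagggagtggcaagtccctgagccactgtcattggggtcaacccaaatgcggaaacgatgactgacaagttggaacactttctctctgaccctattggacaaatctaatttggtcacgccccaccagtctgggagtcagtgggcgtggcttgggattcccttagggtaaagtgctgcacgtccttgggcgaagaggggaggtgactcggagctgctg
Cox7a2: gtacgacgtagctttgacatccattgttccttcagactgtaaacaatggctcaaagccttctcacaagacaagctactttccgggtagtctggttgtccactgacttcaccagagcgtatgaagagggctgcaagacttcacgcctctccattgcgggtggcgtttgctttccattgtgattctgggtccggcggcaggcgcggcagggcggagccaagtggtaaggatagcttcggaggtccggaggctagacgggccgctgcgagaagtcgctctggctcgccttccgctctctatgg

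The window of Cox7a1 held 3 GATA matches, with first bases at −223, −196 and −177 from the start, and no match to the other letters. It was the only one of 83 windows of oxidative phosphorylation genes with 3 or more, against 0.428% of 21044 windows of all protein-coding genes. This count was chosen after the matches were seen. The Cox7a2 window had no match to any of the letters, and neither did that of Cox8b. The listed start of Cox7a2 lies inside its gene body (chr9:79755241-79771422), so its window is not at the 5′ end of that body. The FOG2 peak inside Cox7a1 did not overlap its window, and its summit lay 951 bp past the start, so these letters are not the sequence under the peak.

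**Figure D2:**
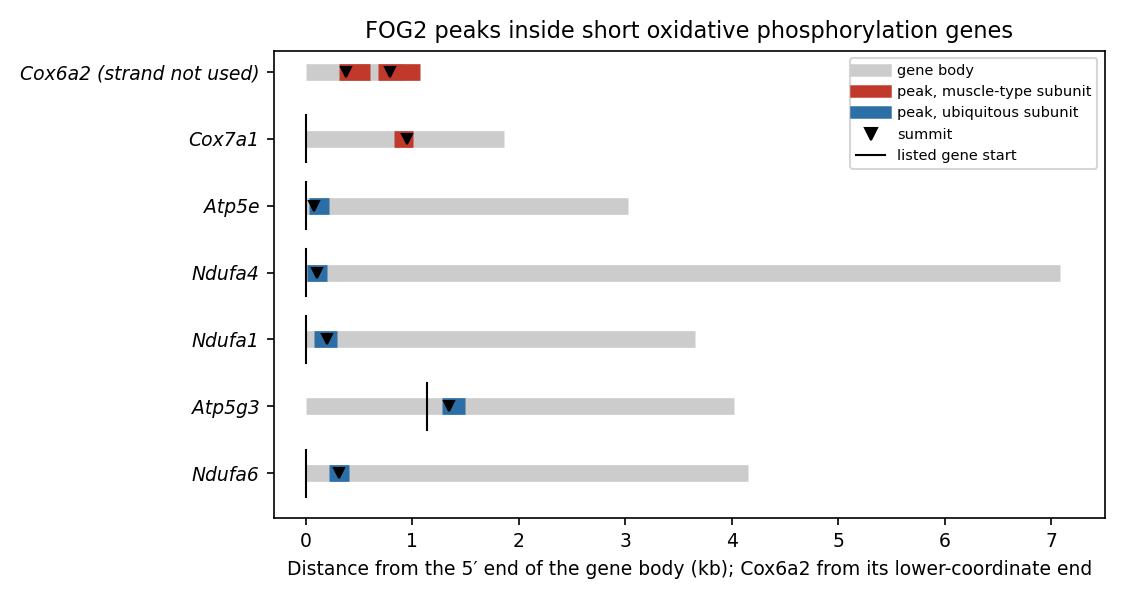
Gene bodies (grey) of the 7 oxidative phosphorylation genes under 10 kb that hold a FOG2 summit, with peak intervals coloured by class, summits as triangles and the listed gene start as a line. The horizontal axis is the distance in kb from the 5′ end of the gene body, or, for Cox6a2, from its lower-coordinate end. Summits of Atp5e, Ndufa4, Ndufa1, Atp5g3 and Ndufa6 lie 80 to 315 bp past a gene start.

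Among ubiquitous subunits, the summits inside short genes lay just past the gene start. A start was listed for 78 of the 96 genes. Within 500 bp of a start a summit lay at 5 of these 78 (6.41%), against 0.608% of 17273 protein-coding genes with a listed start. For gene bodies under 10 kb the count was 5 of 55 (9.09%), against 0.465%, and for ribosomal protein genes it was 0 of 64. The 5 genes were Atp5e, Ndufa4, Ndufa1, Atp5g3 and Ndufa6. All 5 summits lay downstream of the start, whereas of the 105 genes in the genome with a summit that near, 48 (45.7%) had it downstream. The 105 are genes, so a summit near the starts of neighbouring genes counts for each of them. The summits of Ndufa1 and Ndufa4 also lay within 500 bp of the starts of Rnf113a1 and Phf14. This distance was chosen after the summits had been seen, and the differences were not tested.

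Atp5e (chr2:174461075-174464101) encodes the epsilon subunit in the central stalk of ATP synthase. Its summit lay 80 bp past the start, in a peak at chr2:174463886-174464073 that was 7.11-fold with 12 fragments (6.20 to 21.0). Atp5g3 (chr2:73908447-73912464) encodes the c subunit of the ATP synthase rotor, as do Atp5g1 and Atp5g2. Its summit lay 202 bp past the listed start, which is itself 1.14 kb inside the gene body, and the peak at chr2:73910971-73911185 was 5.50-fold with 9 fragments (4.12 to 17.1). It did not pass a −log10 q of 5 (4.29). Atp5g1 and Atp5g2, which make the same mature protein, had no summit assigned, with the nearest 165 kb and 32.9 kb away.

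Ndufa4 (chr6:11900372-11907450) was named for complex I, but its product is found in cytochrome c oxidase. Its summit lay 103 bp past the start, in a peak at chr6:11907247-11907436 that was 6.53-fold with 17 fragments (9.90 to 27.2). The control level there was 1.76, against a median of 0.828 over all peaks. The start of Phf14, a chromatin reader gene, lay 482 bp from this summit. Ndufa1 (chrX:37187588-37191238), a small membrane subunit needed to build complex I, had a summit 196 bp past its start, in a peak at chrX:37190943-37191164 that was 8.70-fold with 13 fragments (6.92 to 22.2). The start of Rnf113a1 lay 180 bp from that summit. Assigned by the nearest listed start, the Ndufa4 summit stayed with Ndufa4, and Ndufa1 was no longer called.

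Ndufa6 (chr15:82350139-82354291), an accessory subunit of complex I, had a summit 315 bp past its start, at chr15:82353886-82354073, 6.21-fold with 11 fragments (5.49 to 19.7). No other listed start lay within 5 kb of it. The fragment intervals of these 5 summits all overlap, and their order was not tested. Including Cox6a2 and Cox7a1, 7 of the 13 summits (53.8%) were within 1 kb of an end of their gene, with a median of 6.53-fold. Of all 4699 assigned summits, 195 (4.15%) were, with a median of 6.32-fold. Any summit inside Cox6a2 or Cox7a1 would count here, as their bodies are under 2 kb. The 4699 summits were not matched for gene length.

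The promoter windows of Atp5e and Ndufa4 are shown because these are the only ones that a member's peak overlapped, by 22 and 36 bases at the end of the window. They run 5′ to 3′ on the minus strand at chr2:174464052-174464351 and chr6:11907401-11907700, with capitals as above. That of Atp5g3, chr2:73911277-73911576 on the minus strand, is shown because it holds both GATA and ERR letters next to a peak.
Atp5e: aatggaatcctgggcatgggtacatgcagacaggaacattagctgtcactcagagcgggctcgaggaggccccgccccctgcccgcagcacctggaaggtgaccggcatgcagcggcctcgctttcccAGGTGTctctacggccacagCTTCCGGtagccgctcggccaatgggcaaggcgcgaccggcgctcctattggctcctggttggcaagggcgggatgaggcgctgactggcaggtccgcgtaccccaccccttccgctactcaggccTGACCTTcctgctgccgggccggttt
Ndufa4: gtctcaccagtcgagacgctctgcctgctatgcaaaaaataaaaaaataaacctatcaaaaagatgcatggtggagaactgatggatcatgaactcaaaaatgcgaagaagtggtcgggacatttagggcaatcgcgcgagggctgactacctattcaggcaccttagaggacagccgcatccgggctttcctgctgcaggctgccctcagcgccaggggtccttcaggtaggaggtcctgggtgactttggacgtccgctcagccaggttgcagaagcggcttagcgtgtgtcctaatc
Atp5g3: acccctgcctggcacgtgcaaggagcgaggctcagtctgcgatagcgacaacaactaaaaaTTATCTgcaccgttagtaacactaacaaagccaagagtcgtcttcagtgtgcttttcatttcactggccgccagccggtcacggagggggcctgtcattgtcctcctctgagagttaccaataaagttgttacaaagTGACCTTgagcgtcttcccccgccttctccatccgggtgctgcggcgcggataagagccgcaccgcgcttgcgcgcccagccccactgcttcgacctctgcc

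Atp5e had a T-box and an ETS match before the start, with first bases at −122 and −102, and an ERR match at 24 past it. The Ndufa4 window held none of the letters. Atp5g3 had a GATA match at −189 and an ERR match at −52 from its start. Over the 83 windows the letters of NRF1 and ETS factors, known regulators of respiratory genes, were found in 15.7% and 22.9%, against 4.47% and 11.7% of all windows. ERR letters were in 9.64% against 4.06%. GATA letters were in 16.9% against 15.8% and T-box letters in 13.3% against 12.8%. In the 11 windows of genes with a summit, GATA letters were in 3, T-box, ERR, ETS and NRF1 letters in 2 each. A match is a run of letters and not a bound site.

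**Figure D3:**
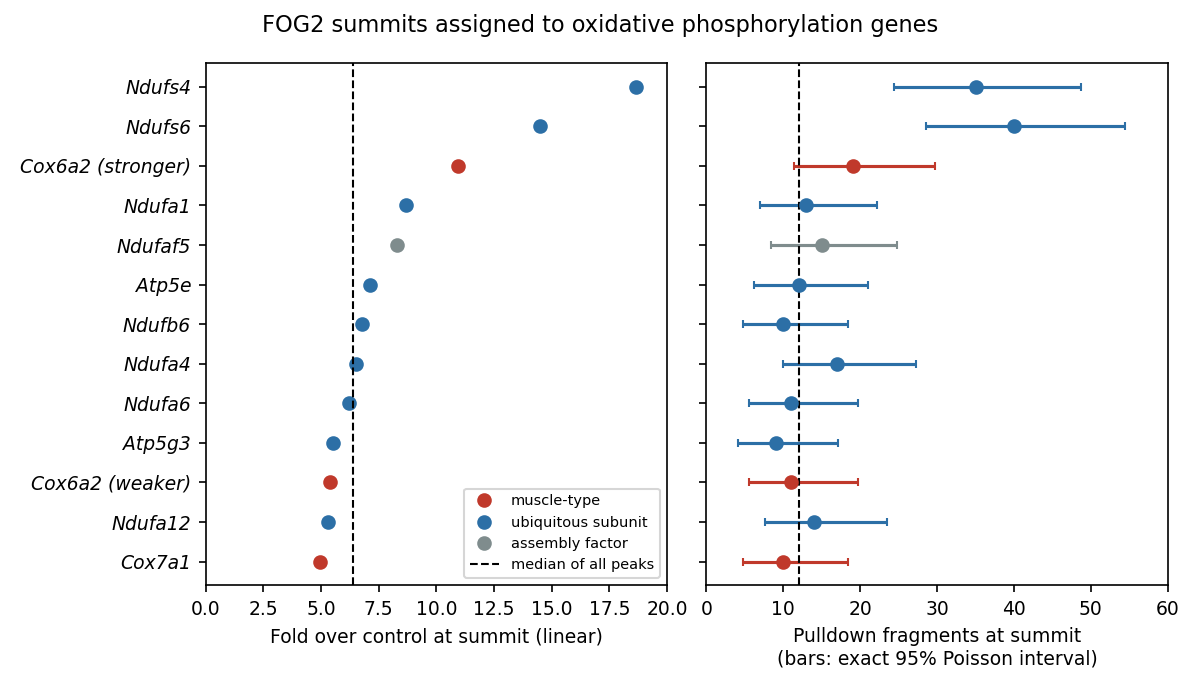
Fold over control (left) and recovered pulldown fragments with exact 95% Poisson intervals (right) at the 13 FOG2 summits assigned to oxidative phosphorylation genes, coloured by class. Dashed lines are the medians of all peaks (6.39-fold and 12 fragments). Only the summits at Ndufs4 and Ndufs6 have intervals that lie wholly above the median of 12 fragments.

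The strongest summits belonged to complex I subunits and lay away from gene ends. Ndufs4 (chr13:114287795-114388094), an accessory subunit of the NADH-oxidising arm, held a summit 43.7 kb past its start. The peak at chr13:114344252-114344619 was 18.6-fold with 35 fragments (24.4 to 48.7) and ranked 218 of 6166. Ndufs4 is 100.3 kb long, much longer than most of these genes.

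Ndufs6 (chr13:73319876-73328482), a zinc-binding subunit of complex I, was assigned a summit 20.9 kb outside its body. The peak at chr13:73298711-73299165 was 14.5-fold with 40 fragments (28.6 to 54.5). The next gene on the other side, Irx4, a transcription factor gene of ventricular identity, lay 29.4 kb from the same summit. A second peak stood 8.62 kb from Ndufs6, at 8.70-fold with 14 fragments (7.65 to 23.5), and went to Mrpl36, a mitochondrial ribosomal protein gene.

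The remaining assigned summits were near the median strength. Ndufaf5 (chr2:140170584-140218965), an assembly factor that modifies a complex I subunit, held one inside its gene body, 32.2 kb past the start, at 8.29-fold with 15 fragments (8.40 to 24.7). It was the only one of the 8 assembly factors with a summit. Ndufb6 had a summit 59.6 kb outside its body, at 6.79-fold with 10 fragments (4.80 to 18.4), and Ndufa12 had one 28.4 kb outside, at 5.31-fold with 14 fragments (7.65 to 23.5). The 13 summits ranged from 4.96- to 18.6-fold with a median of 6.79, and the 4699 summits assigned to any gene had a median of 6.38.

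By complex, the ubiquitous subunits with a summit were 6 of 37 in complex I (16.2%), 0 of 4 in complex II, 0 of 8 in complex III, 1 of 11 in complex IV (9.09%) and 2 of 17 in complex V (11.8%). Over all 77 ubiquitous subunits this was 9 (11.7%), and the share of all protein-coding genes was 13.6%, near those of complexes I and V. None of the 12 genes of complexes II and III had a summit within 100 kb of its body, nearest or not. By that measure 33.3% of all protein-coding genes had one. The closest of the 12 were Uqcrc1, a core subunit of complex III, at 110 kb, and Sdhd, a membrane anchor of complex II, at 150.1 kb. The summit nearest to Sdhd was assigned to Cryab, a small heat shock protein gene.

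Distance to the nearest summit, whichever gene it was assigned to, had a median of 144 kb (quartiles 41.0 and 286 kb) over the 96 genes and 196 kb (63.0 and 456 kb) over all protein-coding genes. For ribosomal protein genes the median was 220.3 kb (102 and 365 kb). A summit lay within 20 kb of the body of 16 of the 96 genes (16.7%), against 13.6% of all genes and 1.19% of ribosomal protein genes. At the far end, Uqcr10, a small complex III subunit, lay 2425 kb from its nearest summit.

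**Figure D4:**
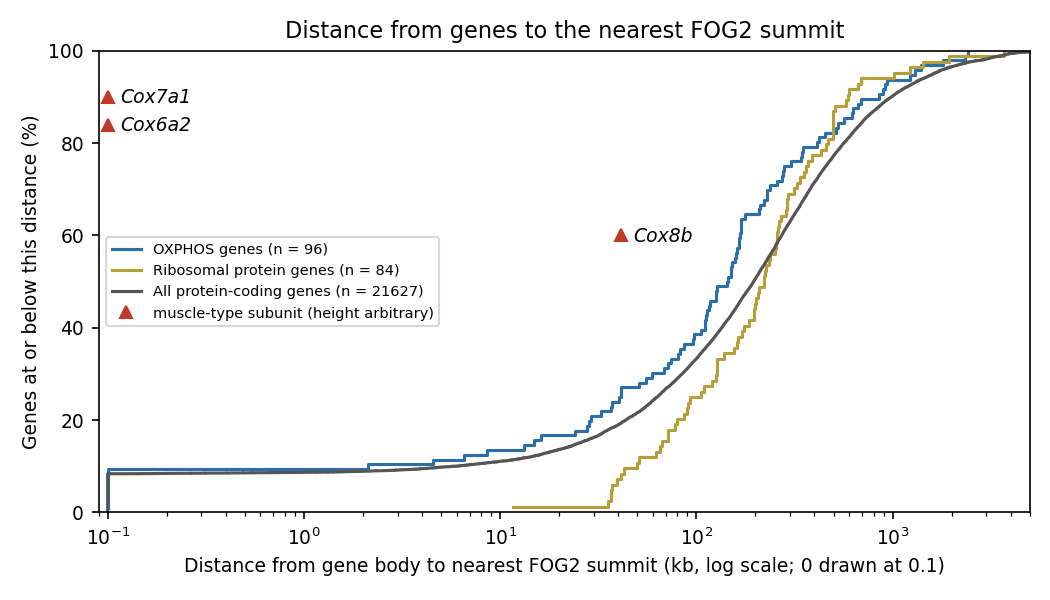
Cumulative share of genes (vertical axis, %) by distance from the gene body to the nearest FOG2 summit (kb, log scale, with 0 drawn at 0.1) for oxidative phosphorylation (OXPHOS), ribosomal protein and all protein-coding genes. Triangles mark the distances of the muscle-type subunits, at arbitrary height. Cox6a2 and Cox7a1 lie at 0 and Cox8b at 41.2 kb, and the median is 144 kb for OXPHOS genes and 196 kb for all genes.

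The 10 genes without an assigned summit that stood closest to a summit lay beside one that went to a neighbour. Ndufb9 lay 2.12 kb from a 4.51-fold summit assigned to Tatdn1, Cox6c 4.56 kb from a 5.60-fold summit of Vps13b, and Ndufs7 6.58 kb from a 4.64-fold summit of Pwwp3a. Ndufa7, Ndufa5 and Ndufa11 followed at 13.2, 14.9 and 16.1 kb, and Ndufs3, Cox4i2, Atp5a1 and Atp5g2 at 24.1 to 32.9 kb. These neighbouring summits rested on 7 to 22 fragments. If every gene within 100 kb of a summit is counted, nearest or not, 37 of the 96 genes have one, against 33.3% of all genes, and all 3 muscle-type genes are among them.

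Of the summits nearest to one of the 96 genes, the last inside the limit was that of Ndufb6 at 59.6 kb and the first outside was that of Ndufa10 at 111 kb and 7.11-fold. Beyond Atp5g3, 4 further summits stood 126 to 289 kb from the gene with no nearer protein-coding gene, at 4.35- to 9.45-fold.

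Among the other genes of mitochondrial respiration, the regulators had the highest share with a summit among the lists of such genes. Of 11 regulators of respiratory genes, 6 had a summit (54.5%), against 13.6% of all protein-coding genes: Ppargc1a and Ppargc1b, which encode the coactivators PGC-1 alpha and beta, Esrrg and Esrrb, which encode oestrogen-related receptors, Ppara, a receptor for fatty acids, and Gabpa, an ETS factor. They were led by Ppargc1a (8 summits, strongest 20.3-fold) and Esrrg (7 summits, strongest 17.9-fold), genes of 662 and 606 kb. Esrrb and Ppargc1b are 161 and 109 kb long, and Ppara and Gabpa 71.9 and 28.9 kb. The share with a summit rises with territory, to 52.9% of all genes in the top decile. The regulators were not compared with genes of like size. Esrra, Nrf1, Gabpb1, Pprc1 and Yy1, genes of 11.1 to 105 kb, had none.

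Of 20 assembly factors of cytochrome c oxidase, 3 had a summit (15%), near the 13.6% of all protein-coding genes. Cox17, a copper chaperone of the enzyme, held it inside a gene body of 5.78 kb, 2.16 kb from the nearer end, at 11.0-fold with 30 fragments (20.2 to 42.8). Cox10, which makes heme A, held one at 5.86-fold. Lrpprc, needed for mitochondrial mRNA, was assigned one 79.2 kb away at 25.9-fold, while a nearer summit, 17.5 kb away, was assigned to another gene. Of 20 assembly factors of the other complexes, 1 had a summit (Nubpl, 7.56-fold), of 10 genes of mitochondrial DNA expression 1 (Tfb1m, 11.0-fold), and of 14 TCA cycle genes 2 (14.3%: Sucla2, 6.30-fold, and Dld, 4.96-fold). The 3 cytochrome c and c1 genes (Cycs, Cyct and Cyc1) and the 11 carriers and pores had 0.

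The contrast between muscle-type and other isoforms was not seen in 9 other isoform pairs of energy metabolism. Of 9 muscle-type genes (Ckm, Ckmt2, Eno3, Pgam2, Slc25a4, Pfkm, Pygm, Fabp3 and Ldhb) 1 had a summit, and of the 9 partners (Ckb, Ckmt1, Eno1, Pgam1, Slc25a5, Pfkl, Pygl, Fabp5 and Ldha) also 1. These were Fabp3, the heart fatty acid-binding protein gene, with a summit inside the gene 0.152 kb from its end (6.32-fold, 13 fragments, 6.92 to 22.2), and Eno1, an enolase gene (5.94-fold, 9 fragments, 4.12 to 17.1). Each count is 11.1% of its set, against 13.6% of all genes. In the lactate dehydrogenase pair, muscle-type stands for the heart form, Ldhb, and the partner Ldha is the main form of skeletal muscle. Neither of these genes had a summit.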

How the data were processed

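FOG2 pulldown and input libraries of E12.5 ventricles were processed by the authors with Bowtie2 2.3.2, SAMtools 1.5, Picard and MACS2 2.1.1 on mm10, per the submitters' processing notes (settings: not given in the sources used here). A single peak list was deposited as a pool of both replicates, filtered against blacklisted regions, per the file and peak names. Its fold is the authors' linear ratio at the summit, with the same constant added to pulldown and control signal. Its deposited −log10 p and q values are the caller's, and its deposited display score and summit offset were used only for a check and for the summit position.

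Summits (Python 3.11.15) were assigned to the nearest of 21627 RefSeq gene bodies (GRCm38.p6) within 100 kb, with ties (22 summits) given to each gene. Whole fragments were recovered from fold and p as a Poisson tail, within 0.001 of the deposited −log10 p in 100% of peaks (in 83 peaks more than 1 whole number lay within it). Assignment and recovery were tested on simulated data. Gene starts and promoter windows came from the RefSeq table of 78 of the 96 genes. No model or p-value was computed, since the list is pooled.

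The members, lists and counts were chosen with earlier results of these data known. Named genes were all members with a summit, the muscle-type subunits, their partners and other isoforms, the 10 members without one that lay nearest to a summit, up to 6 genes of highest fold per list and the isoform pairs. Genes named outside this rule are Pcbp1, Tcap, Gm52451, Ndufa10, Uqcrc1, Sdhd, Uqcr10, Atp5g1 and neighbours of summits. Also outside it are the regulators and the cytochrome c and c1 genes named without a summit, and genes named to define the members.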

Additional observations from a re-analysis of the deposited data

How the results depend on the processing

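The number of oxidative phosphorylation genes with a summit was 8 to 12 under 8 of the 9 settings run on all genes, and 37 when every gene within 100 kb was counted, nearest or not, with 33.3% of all genes called. That last setting counted 26 ubiquitous subunits and 4 assembly factors. The muscle-type count was 1 with a −log10 q of at least 5, with a fold of at least 5, in the stronger 50% of peaks, and by nearest start site, where Cox6a2 had no listed start and 2 of the 3 genes could be scored. By nearest start site, 5 of 78 genes (6.41%) had a summit within 5 kb of a start, against 2.08% of all genes with a listed start. This is a different measure from the count in the gene body or within 5 kb of it. The count within 1 kb of a gene end was 4 to 6 under all 6 settings run, against 0.416% to 0.953% of all genes. The median distance was 199.6 kb (all genes 296 kb) with a −log10 q of at least 5 and 319.6 kb (394 kb) in the stronger 50% of peaks. Among other lists, TCA cycle genes with a summit fell to 1 with a −log10 q of at least 5 and to 0 in the stronger 50% and within 10 kb. In the 9 isoform pairs of energy metabolism, partners with a summit fell to 0 with a −log10 q of at least 5. In the stronger 50% both the partners and the muscle-type genes of these pairs fell to 0, and endothelial markers to 1. Of all genes, 10% were called at the q threshold and within 10 kb, and 8.01% in the stronger 50%. The cause was not tested. Motifs around summits were not run, since no genome sequence was used here. No paired analysis was possible because the list pools the replicates, and for that reason no replicate could be left out. A median summit rests on 12 fragments, so folds near the median cannot be ranked.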
